A study of Mus musculus with 53 samples.

Results

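Tumours of the KPTC genotype were examined at 15 weeks of growth, after transduction with a pool of lentiviral vectors that target 11 tumour suppressor genes. They came from 12 of the 53 mice of the series, and these 12 mice were taken by genotype, time and vector pool alone. Each vector carried an sgRNA and a random barcode, was delivered through the trachea, and started tumours by Cre recombinase and Cas9 editing, so that all cells of a tumour shared a barcode (Tuba-seq). The comparison group was 10 KTC mice with the same pool and the same 15 weeks. The labels do not spell out the genotype letters. By the usual naming of such mice, T is a Cre reporter and C a Cas9 allele, carried like K by both groups, and P is a Cre-deleted p53 allele, carried by KPTC mice only. Each library was 1 mouse, and DNA was taken from whole lung, so tumours were known by their barcodes only and not by histology. The sizes of tumours with each target were compared with tumours carrying inert vectors, whose sgRNAs edit no tumour suppressor, in the same mouse.

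As background, p53 is a transcription factor that halts the cell cycle or kills cells under stress, and its loss is frequent in lung adenocarcinoma. Loss of p53 lets some lung tumours advance. The effect of a further tumour suppressor lost in KPTC tumours can only be read as an effect beyond p53 loss. An sgRNA against p53 has no intact target left in KPTC tumours once Cre has acted, so P53 vectors served as a further control. The 11 targets cover chromatin and splicing (Setd2, Arid1a, Rbm10), the p53 and DNA damage pathways (ATM, Cdkn2a, P53), the cell cycle (Rb1, again Cdkn2a) and signals and metabolism (APC, Keap1, Lkb1, Smad4).

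The 12 KPTC mice held 140627 listed tumours, from 3553 to 30646 per mouse, of which 39164 were inert. The smallest listed tumour of a mouse had between 509.6 and 982.2 cells. Sizes lay on a ladder of evenly spaced steps in each mouse, and 1 step was worth 39.2 cells in replicate 2 and 485.9 cells in replicate 12. A step was taken as 1 read, which no source states. The smallest listed tumour was 2 steps tall in replicates 1, 6, 7 and 12 and 13 steps tall in replicate 2, and the median inert tumour was 4.10 to 20.1 steps tall. Sizes near the lower end therefore rested on few reads, while the 95th percentile of inert tumours stood at 32.1 to 129.2 steps. The numbers of tumours per target ranged from 5000 (Rbm10) to 12472 (P53), and the smallest set in a single mouse was 119 Rbm10 tumours in replicate 2.

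A tumour is identified by its barcode of 21 bases. Barcodes are shown here for the largest Setd2, Rb1 and Lkb1 tumours of replicate 6, the mouse with the most tumours. The barcode of the largest tumour of all 12 mice is shown as well. Capitals mark positions 1, 2, 8, 9, 15 and 16, which held the fixed bases of the barcode layout in 87.9% to 92.6% of the tumours of a mouse.

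Setd2, replicate 6, 1559950 cells: AAcacggTTgaaatAAtcagg

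Rb1, replicate 6, 6678330 cells: AAcacgtTTtatgcAAcggcc

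Lkb1, replicate 6, 4194280 cells: CGaaggaAActtatCAcaaga

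Cdkn2a, replicate 8, 1.02e+08 cells: AAtgaggTTcacacAAgctgg

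The Lkb1 barcode lacks the fixed bases and the other 3 carry them.

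Setd2, Rb1 and Lkb1 vectors gave larger tumours than inert vectors at the upper end of the size range, and P53 vectors did not. At the 95th percentile Setd2 tumours were 2.56-fold, Rb1 tumours 1.82-fold and Lkb1 tumours 1.73-fold the size of inert tumours of the same mouse (mean of 12 mice). APC, Cdkn2a and Arid1a tumours were larger by 1.18-fold to 1.26-fold. Of the 11 targets, 6 passed the test at the 95th percentile, which is 54.5%, and all 6 were larger than inert. The signs of the 12 per-mouse log2 ratios were flipped in all ways (exact permutation, two-sided), with p-values adjusted by Benjamini-Hochberg over the 11 targets with a threshold of 0.05.

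Setd2 encodes the methyltransferase that trimethylates histone H3 over transcribed genes. The 95th percentile of Setd2 tumours was lowest in replicate 4, at 7765 cells, had a median of 20389 cells over the 12 mice, and was highest in replicate 1, at 70571 cells. The 95th percentile of inert tumours ran from 4021 cells in replicate 3 through a median of 6886 cells to 22861 cells in replicate 12. The ranges over mice overlapped, but within each mouse Setd2 was above inert, in 12 of 12 mice. The log2 ratio was 1.36 ± 0.80 (SD, n = 12), with an adjusted permutation p of 0.00269. It was smallest in replicate 5 (0.45) and largest in replicate 9 (2.91), where the Setd2 value was 39745 cells against 5293 cells for inert. Setd2 had the highest ratio of the 11 targets in 6 of 12 mice and was among the highest 3 in 11 of 12.

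Rb1 encodes the pocket protein that holds E2F factors in check and so restrains entry into S phase. The 95th percentile of Rb1 tumours was 6508 cells in replicate 4, 13635 cells at the median and 32673 cells in replicate 1. Rb1 was above inert in 12 of 12 mice, and its spread was the narrowest of the 3 leading targets. The log2 ratio was 0.86 ± 0.36 (SD, n = 12), from 0.27 in replicate 12 to 1.54 in replicate 9, with an adjusted permutation p of 0.00269.

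Lkb1 (Stk11) is the kinase that activates AMPK and its relatives when energy is low. The 95th percentile of Lkb1 tumours was 6881 cells in replicate 3, 12442 cells at the median and 36611 cells in replicate 12. Lkb1 exceeded inert in 11 of 12 mice and was below it in replicate 10, where the values were 11116 and 12271 cells. The log2 ratio was 0.79 ± 0.61 (SD, n = 12), from -0.14 in replicate 10 to 2.44 in replicate 8, with an adjusted permutation p of 0.00358. In replicate 8 the Lkb1 value was 29389 cells against 5416 cells for inert.

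**Figure D1:**
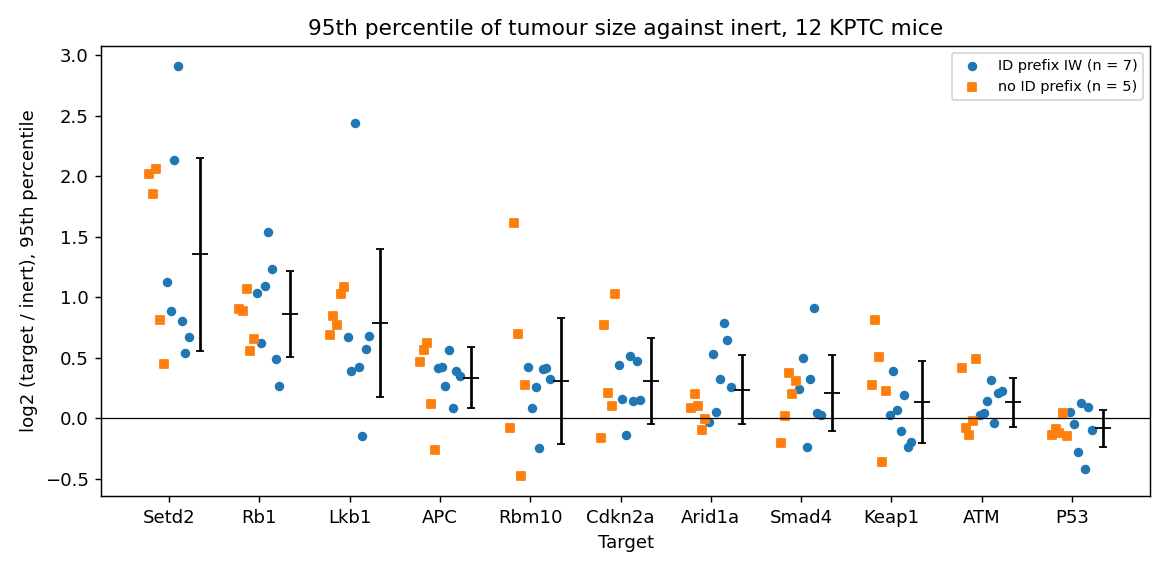
Points show, for each of the 11 targets, the log2 ratio of target to inert at the 95th percentile of tumour size, with 1 point per KPTC mouse (12 mice, marked by the prefix of the mouse's ID), and the black marks give the mean and SD. Setd2 and Rb1 lie above 0 in 12 of 12 mice and Lkb1 in 11 of 12, while P53 stays between -0.42 and 0.12.

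APC, which scaffolds the degradation of beta-catenin in the Wnt pathway, gave a smaller shift. Its 95th percentile ran from 4795 cells in replicate 4 through 8010 cells at the median to 29179 cells in replicate 12, above inert in 11 of 12 mice. The log2 ratio was 0.34 ± 0.25 (SD, n = 12; adjusted permutation p = 0.00671), with its lowest value in replicate 5 (-0.26) and its highest in replicate 3 (0.63). Cdkn2a, which encodes the CDK inhibitor Ink4a and the p53 activator Arf, ran from 4662 cells in replicate 3 through 10169 cells at the median to 25381 cells in replicate 12. Cdkn2a was above inert in 10 of 12 mice, at 0.31 ± 0.35 (SD, n = 12; adjusted permutation p = 0.0170). Arid1a, a subunit of the SWI/SNF chromatin remodeller, ran from 4133 cells in replicate 4 through 8640 cells at the median to 27382 cells in replicate 12. It was above inert in 9 of 12 mice, at 0.24 ± 0.28 (SD, n = 12; adjusted permutation p = 0.0170). These 3 shifts were of the size of their own spread over mice. With a lower size limit of 1000 cells, which kept 61.4% of the tumours, APC, Cdkn2a and Arid1a no longer passed (adjusted permutation p = 0.0629 for each), whereas Setd2 (1.67), Rb1 (1.09) and Lkb1 (1.21) passed with larger ratios. With at least 10 steps, which kept 42.5%, Cdkn2a (0.61) and Rbm10 (0.48, adjusted permutation p = 0.0387) passed, APC (0.27) and Arid1a (0.17) did not, and the ratios of Setd2 (1.71), Rb1 (1.29) and Lkb1 (1.36) rose further. With at least 5000 cells the 3 leading targets still passed, at 1.05, 1.01 and 1.02 in the same order, and P53 (-0.57) and Keap1 (-0.83) passed below inert (adjusted permutation p = 0.0215 for each).

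The other 5 targets did not pass at the 95th percentile. Rbm10, a splicing regulator, had a log2 ratio of 0.31 ± 0.52 (SD, n = 12) that ran from -0.47 to 1.61, with an adjusted permutation p of 0.0585. Smad4, the shared mediator of TGF-beta signals, had 0.21 ± 0.31 (adjusted permutation p = 0.0506), and ATM, the kinase that signals DNA breaks, had 0.13 ± 0.20 (adjusted permutation p = 0.0585). Keap1, the adaptor that marks the antioxidant factor Nrf2 for degradation, had 0.14 ± 0.34 (adjusted permutation p = 0.197). P53 had -0.08 ± 0.16 and lay below inert in 8 of 12 mice (adjusted permutation p = 0.0994). Rbm10, ATM and Smad4 were under 0.05 before adjustment, at 0.0479, 0.0444 and 0.0322.

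Set against P53 tumours of the same mouse in place of inert tumours, 9 of the 10 other targets were larger at the 95th percentile, which is 90% of those tested. Setd2 exceeded P53 by 1.44 ± 0.80, Rb1 by 0.95 ± 0.42 and Lkb1 by 0.87 ± 0.65 on the log2 scale, each in 12 of 12 mice (SD, n = 12; adjusted permutation p = 0.00163 for each). Rbm10 (0.39), Smad4 (0.29) and ATM (0.22) passed here and had not passed against inert. Rbm10 did not pass in 13 of 23 alternatives (adjusted permutation p up to 0.410). Both comparisons use the same target tumours, and the P53 set is smaller and its 95th percentile was lower than that of inert in 8 of the 12 mice. Keap1 was the target that did not pass (0.22, adjusted permutation p = 0.101).

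The size of the shift depended on where in the distribution it was read. At the median, 7 of 11 targets were above inert (63.6%), with ratios of at most 1.10-fold. Rb1 (0.14 ± 0.13) and APC (0.14 ± 0.17) led on the log2 scale, both above inert in 12 of 12 mice. Setd2 stood at 0.10 ± 0.14 and Lkb1 at 0.03 ± 0.08, and the control P53 passed as well at 0.04 ± 0.07 (adjusted permutation p = 0.0107). The median inert tumour was 4.10 to 20.1 steps tall, and when tumours of fewer than 10 steps were left out, 1 target passed in place of 7. A median counted as above inert can lie on the same step as the inert median. For both Rb1 and APC this was so in replicates 3, 10, 11 and 12. In replicate 12 the Rb1 median was 2468 cells against 2447 for inert, at 485.9 cells per step. At the 75th percentile 6 of 11 targets passed (54.5%), from 0.10 for Arid1a to 0.24 for Setd2. At the 90th percentile 8 of 11 passed (72.7%), led by Setd2 (0.80 ± 0.50), Rb1 (0.47 ± 0.24) and Lkb1 (0.33 ± 0.41).

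At the 99th percentile the means of the 3 leading targets lay close together and above those of the others. Setd2 tumours were 4.03-fold, Rb1 tumours 3.60-fold and Lkb1 tumours 3.42-fold the size of inert tumours there, each in 12 of 12 mice, with log2 ratios of 2.01 ± 0.995, 1.85 ± 0.98 and 1.77 ± 0.74 (SD, n = 12; adjusted permutation p = 0.00179 for each). In all, 5 of 11 targets passed (45.5%), and the other two, APC (0.59 ± 0.53, adjusted permutation p = 0.0121) and Arid1a (0.38 ± 0.47, adjusted permutation p = 0.0419), were smaller. APC and Arid1a did not pass with a lower limit of 1000 cells, with at least 10 steps or with barcodes of the fixed bases only. With the limit of 1000 cells P53 (-0.82, adjusted permutation p = 0.00716) and Smad4 (-0.53, adjusted permutation p = 0.0430) passed below inert. With at least 5000 cells, 4 mice had 100 Setd2 tumours left, 5 had 100 Rb1 tumours and 4 had 100 Lkb1 tumours, with ratios of 0.60, 0.59 and 0.73, and no target could pass because 5 mice allow no exact permutation p under 0.0625. The 99th percentile of Lkb1 tumours ran from 46009 cells in replicate 2 to 841221 cells in replicate 12, with inert at 20769 and 129850 cells in those mice. Cdkn2a was the most uneven target at this percentile. Its log2 ratio ran from -0.84 in replicate 10 to 2.76 in replicate 5, with a mean of 0.78 ± 1.26 that did not pass (adjusted permutation p = 0.0875). The count of passing targets leaned on replicate 8: without this mouse 8 targets passed, with Cdkn2a (0.93), ATM (0.47) and Smad4 (0.36) added. Replicate 8 held the largest Cdkn2a tumour, near which 38 Cdkn2a barcodes that differ by 1 base were listed. Cdkn2a made up 7.79% of the tumours of replicate 8, against a median of 5.38% over mice. Cdkn2a passed in 1 of 23 alternatives, the one without replicate 8. It did not pass when barcodes 1 base from a larger one were left out. Whether these features of replicate 8 bear on the count of passing targets was not tested.

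**Figure D2:**
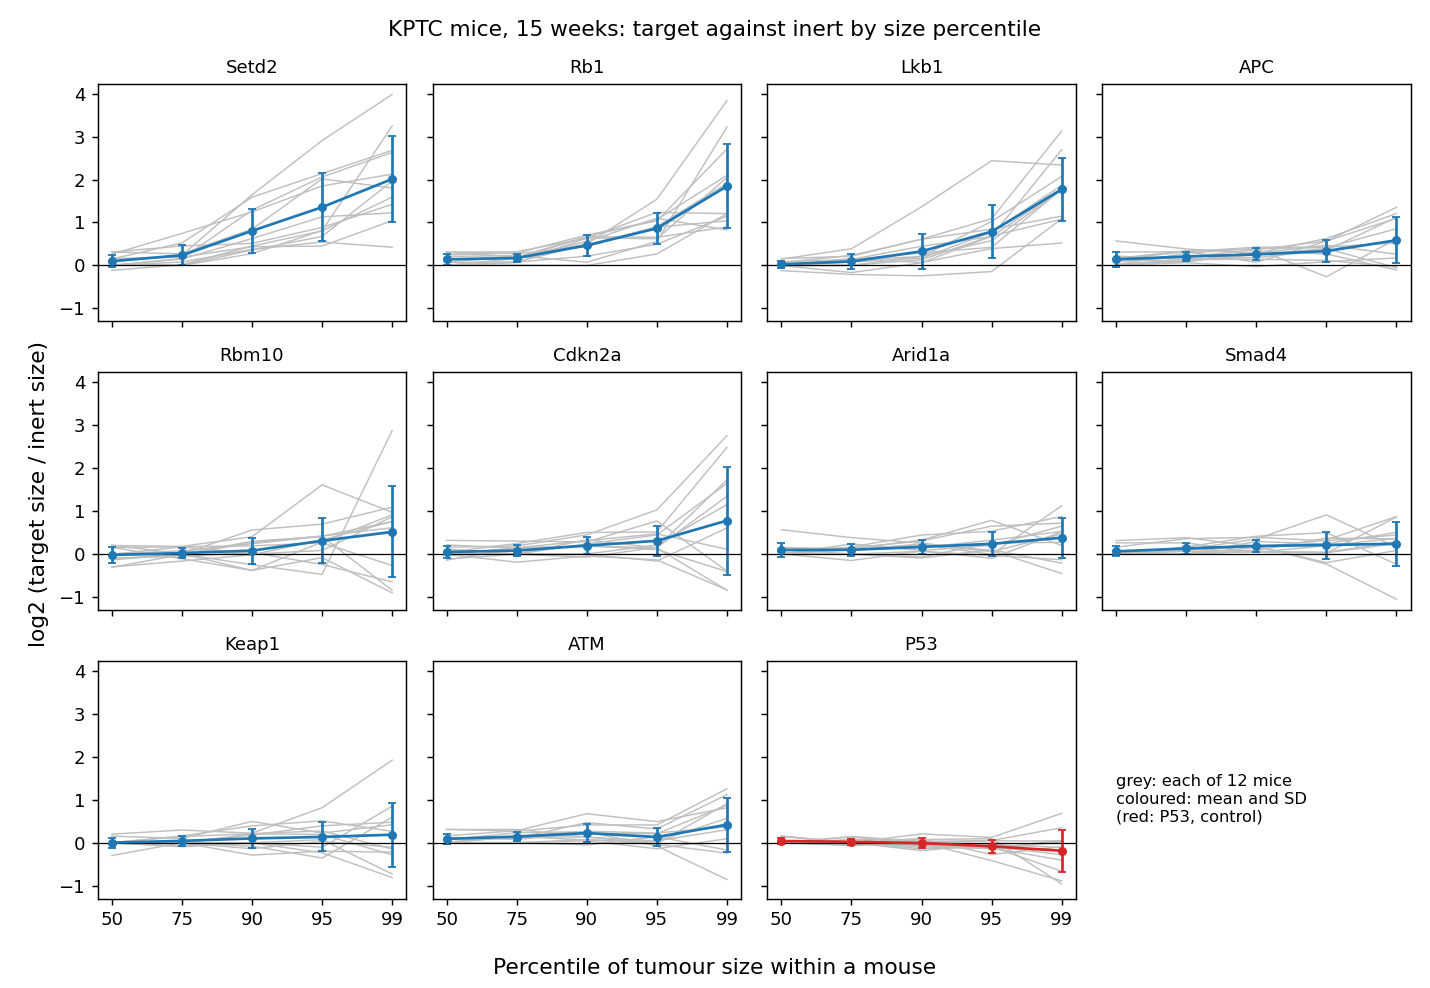
Each panel plots the log2 ratio of target to inert tumour size (vertical axis) at the 50th, 75th, 90th, 95th and 99th percentiles (horizontal axis), with grey lines for the 12 KPTC mice and coloured points for the mean and SD. The lines of Setd2, Rb1 and Lkb1 climb to means of 2.01, 1.85 and 1.77 at the 99th percentile, whereas P53 (red) ends at -0.19.

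The stretch of the upper end was then measured in each mouse as the 99th percentile over the median, relative to the same ratio of inert tumours, a measure added after the data had been seen. Of the 11 targets, 3 passed (27.3%), and these were Setd2 (1.91 ± 1.01), Lkb1 (1.75 ± 0.70) and Rb1 (1.70 ± 0.97) on the log2 scale, each in 12 of 12 mice (SD, n = 12; adjusted permutation p = 0.00179 for each). Lkb1 thus differed from inert in the stretch, while at the median its ratio was 1.02-fold (adjusted permutation p = 0.306).

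Pairs of targets were compared directly in the same mice, with p-values adjusted over the 55 pairs at each percentile. The pairs at the 95th percentile were planned, and those at the 90th and 99th were added after the data had been seen. At the 95th percentile 27 pairs differed (49.1%), at the 90th 22 (40%) and at the 99th 27 (49.1%). Setd2 exceeded Rb1 at the 95th percentile by 0.49 ± 0.58 on the log2 scale, in 10 of 12 mice (adjusted permutation p = 0.0368), while the differences at the 90th percentile (0.34 ± 0.47, adjusted permutation p = 0.0747) and at the 99th (0.17 ± 0.88, adjusted permutation p = 0.632) did not pass. Setd2 exceeded Lkb1 at the 90th percentile by 0.48 ± 0.45 (adjusted permutation p = 0.00826), and the differences at the 95th (0.57 ± 0.89, adjusted permutation p = 0.0762) and the 99th (0.24 ± 1.20, adjusted permutation p = 0.614) did not pass. Rb1 and Lkb1 did not differ beyond their spread at any of the 3 percentiles, with differences of 0.14, 0.08 and 0.07. Setd2 lay above Cdkn2a at the 99th percentile by 1.23 ± 1.63, which did not pass (adjusted permutation p = 0.0528). Rb1 and Lkb1 exceeded Cdkn2a there (adjusted permutation p = 0.0365 and 0.0438). The difference between Setd2 and Rb1 at the 95th percentile did not pass in 12 of 23 alternatives, among them the lower limit of 5000 cells, where it was 0.04 (adjusted permutation p = 0.947). The difference between Setd2 and Lkb1 at the 90th percentile did not pass in 3 of 22 alternatives and turned to -0.21 with the limit of 5000 cells. P53 was the only target that Lkb1 exceeded at the 90th percentile (adjusted permutation p = 0.0134). Its difference from APC there was 0.07 (adjusted permutation p = 0.656). At the 95th percentile Lkb1 did not pass over Arid1a, Rbm10 or Smad4 (adjusted permutation p = 0.0582, 0.102 and 0.0518).

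Counts of tumours past a fixed size gave the same leading targets on a scale that does not use a percentile. These counts use the same tumours of the same mice, so they are not independent of the percentiles. Among inert tumours, 4.66% ± 2.98 (SD, n = 12) had at least 10000 cells, from 1.97% in replicate 9 to 10.8% in replicate 12. The share was 8.22% ± 2.78 for Setd2, 7.11% ± 2.93 for Rb1, 6.59% ± 2.49 for Lkb1 and 4.41% ± 2.76 for P53. Within mice, 7 of 11 targets exceeded inert (63.6%), Setd2 by 3.57 ± 1.97 percentage points, Rb1 by 2.46 ± 1.23 and Lkb1 by 1.93 ± 1.68. Cdkn2a and APC followed with 1.12 percentage points each, then Arid1a (0.92) and Smad4 (0.84).

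At 100000 cells, only Setd2, Rb1 and Lkb1 passed, 3 of 11 targets or 27.3%. Their shares were 1.70% ± 0.87, 1.45% ± 0.80 and 1.49% ± 0.88, against 0.581% ± 0.341 for inert and 0.456% ± 0.275 for P53 (SD, n = 12). The excess over inert was 1.12 ± 0.71 percentage points for Setd2 (higher in 12 of 12 mice), 0.90 ± 0.66 for Lkb1 and 0.87 ± 0.57 for Rb1 (each in 11 of 12), with an adjusted permutation p of 0.00358 for each. The mouse below inert was replicate 9 for Lkb1 and replicate 8 for Rb1. These shares rested on few tumours in the smaller libraries. Replicate 2 listed 2 Setd2, 1 Rb1 and 2 Lkb1 tumours of this size and 0 of 1069 inert tumours.

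Tumours of 1000000 cells or more numbered 37 of 39164 for inert, 26 of 10533 for Rb1, 19 of 8088 for Setd2, 19 of 11385 for Lkb1, 15 of 7846 for Cdkn2a and 12 of 12472 for P53 when the 12 mice were pooled, a description with no test. Single mice weighed heavily here: replicate 6 held 12 of the 26 Rb1 tumours and replicate 12 held 8 of the 19 Lkb1 tumours. Cdkn2a had a higher share of such tumours than Lkb1 (0.191% against 0.167%). Lkb1 reached this size in 4 mice, Cdkn2a in 6, and Setd2 and Rb1 in 8 mice each.

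**Figure D3:**
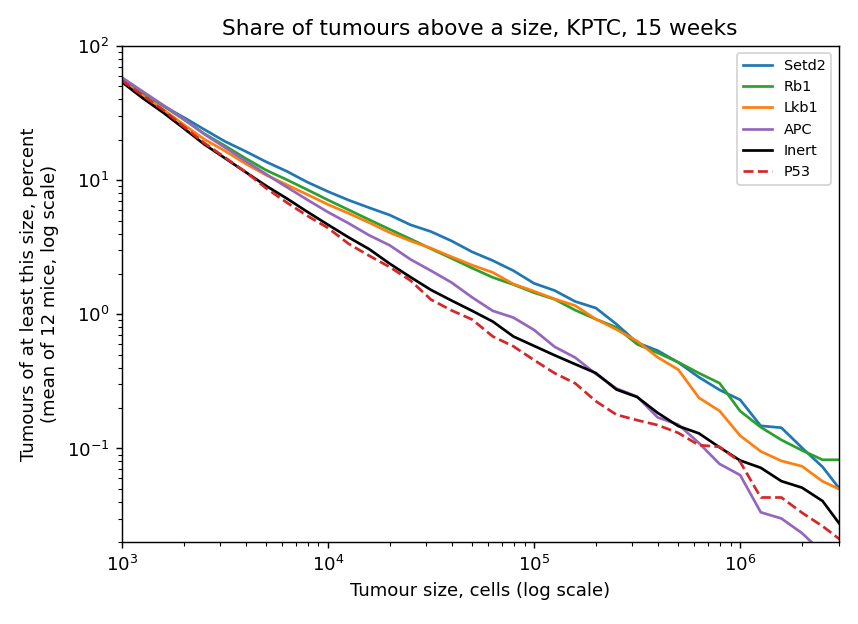
Lines give the percent of tumours of at least the size on the horizontal axis (cells, log scale) for 6 kinds of vector, as the mean of 12 KPTC mice on a log vertical axis. The Setd2, Rb1 and Lkb1 lines leave the inert line before 10000 cells and at 100000 cells stand at 1.70%, 1.45% and 1.49% against 0.581% for inert, while APC returns toward inert and P53 (dashed) stays near it.

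The 100 largest tumours of each mouse were also counted by vector, as a description. Of these 1200 tumours 177 carried Lkb1, 159 Rb1, 148 Setd2, 232 inert and 66 P53 vectors. Lkb1 and Rb1 exceeded their share of the mouse's tumours in 12 of 12 mice and Setd2 in 10 of 12, whereas inert and P53 vectors did so in 0 of 12.

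The summed tumour cells of a target, its burden, told less than the percentiles. The arithmetic mean size was 1.83-fold that of inert for Setd2 (log2 0.87 ± 1.02) and 1.72-fold for Rb1 (log2 0.78 ± 0.96), each higher in 10 of 12 mice. Of 11 targets 0 passed (0%) after adjustment by the sign-flip permutation test, and 2 were under 0.05 before it, Setd2 (adjusted permutation p = 0.0645) and Rb1 (adjusted permutation p = 0.0698). A single tumour often held much of a target's cells. At the median over mice the largest tumour accounted for 14.8% of Lkb1 cells, 17.5% of Setd2 cells and 32.7% of Smad4 cells, and in replicate 8 for 98.3% of Cdkn2a cells. When each target's largest tumour in every mouse was left out, 5 targets passed, with Setd2 (0.91), Rb1 (0.70) and Lkb1 (0.65) above inert and P53 (-0.53) and Keap1 (-0.50) below it on the log2 scale. Leaving out 1 tumour removes a larger share of a target's tumours than of the more numerous inert ones.

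**Figure D4:**
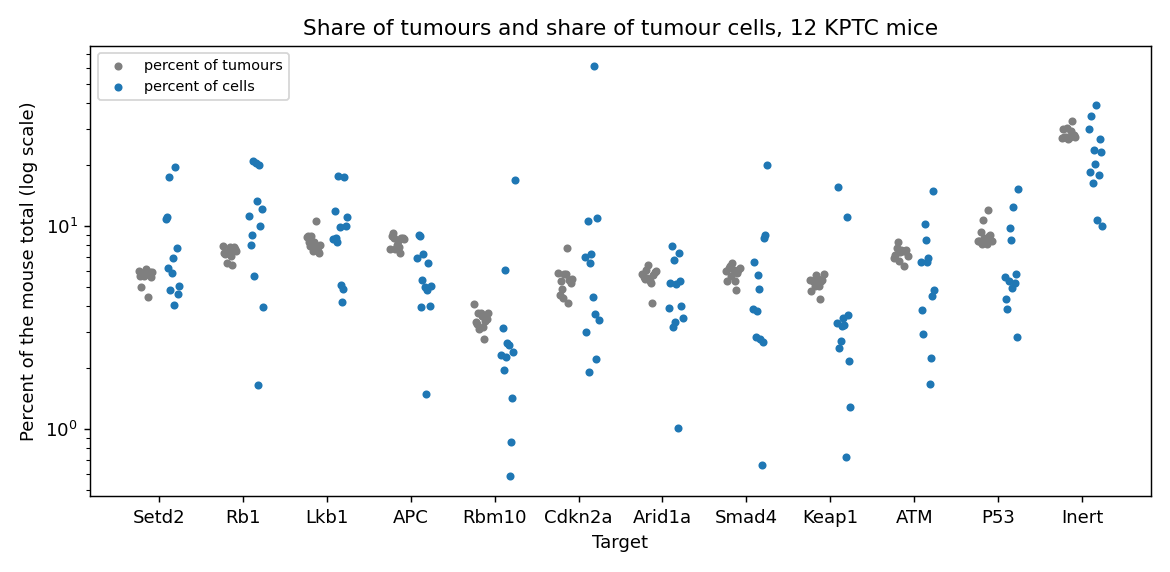
Grey points give the percent of a mouse's tumours and blue points the percent of its tumour cells held by each of the 11 targets and by inert vectors, on a log axis with 1 point per KPTC mouse (12 mice). The share of tumours stays within a narrow band for each target, whereas the share of cells spreads widely, up to 60.9% for Cdkn2a in replicate 8.

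KTC mice carry the same pool with p53 intact at the start, and the contrast with KPTC asks which effects differ once p53 is deleted. The Lkb1 effect was smaller in KPTC. Its log2 ratio at the 95th percentile was 0.79 ± 0.61 in 12 KPTC mice and 1.86 ± 0.92 in 10 KTC mice, a difference of -1.07 ± 0.34 (SE) with an adjusted permutation p of 0.0266. In summed cells relative to inert the difference was -1.23 ± 0.30 (SE; adjusted permutation p = 0.00671), from -1.22 in KPTC to 0.01 in KTC, where Lkb1 tumours together held about as many cells as inert tumours. Of 11 targets 1 differed in summed cells (9.09%). The inert tumours that serve as reference also differed between the groups. Their 95th percentile had a median over mice of 6886 cells in KPTC and 12147 cells in KTC. In steps these medians were 56.1 and 223.1. Whether this bears on the differences between genotypes was not tested.

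At the 95th percentile 4 of 11 targets differed between the genotypes (36.4%), with Lkb1 and Setd2 lower and Rb1 and Smad4 higher in KPTC. Setd2 had 1.36 ± 0.80 in KPTC and 2.35 ± 0.84 in KTC (difference -0.99 ± 0.35, SE). Rb1 had 0.86 ± 0.36 against 0.33 ± 0.57 (difference 0.53 ± 0.21, SE), and Smad4 0.21 ± 0.31 against -0.09 ± 0.25 (difference 0.30 ± 0.12, SE). These 3 differences stood at the threshold, each with an adjusted permutation p of 0.0494. Without KTC replicate 9 the adjusted p rose to 0.112 for Setd2, 0.112 for Rb1 and 0.118 for Smad4, while Lkb1 kept 0.0234. KTC replicate 9 had the fewest tumours of these mice (1271). KTC replicates 9 and 10 have IDs that begin with MW, as no KPTC mouse has, and 5 KPTC mice have no prefix, as no KTC mouse has, so that outside the IW mice prefix and genotype cannot be told apart. Among mice whose IDs begin with IW (7 KPTC and 8 KTC) 0 targets passed, 4 were under 0.05 before adjustment (Setd2, Lkb1, Arid1a and ATM), and the difference was -1.30 for Lkb1 (adjusted permutation p = 0.0689), -1.16 for Setd2, 0.47 for Rb1 and 0.26 for Smad4.

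P53 vectors were the ones whose tumour number differed between the genotypes. For each inert tumour, KPTC mice listed fewer P53 tumours than KTC mice, with log2 ratios of -1.66 ± 0.12 and -1.34 ± 0.15, a difference of -0.31 ± 0.06 (SE; adjusted permutation p = 0.00121). This was 1 of 11 targets (9.09%). The difference in Lkb1 number was -0.01 ± 0.05 (SE), and in Setd2 number -0.11 ± 0.11 (SE). Without KTC replicate 9, in which 9 targets had few tumours for its inert count, Setd2 (-0.19) and ATM (-0.21) also passed. The comparison assumes that both genotypes received the same mixture of vectors, which was not tested.

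**Figure D5:**
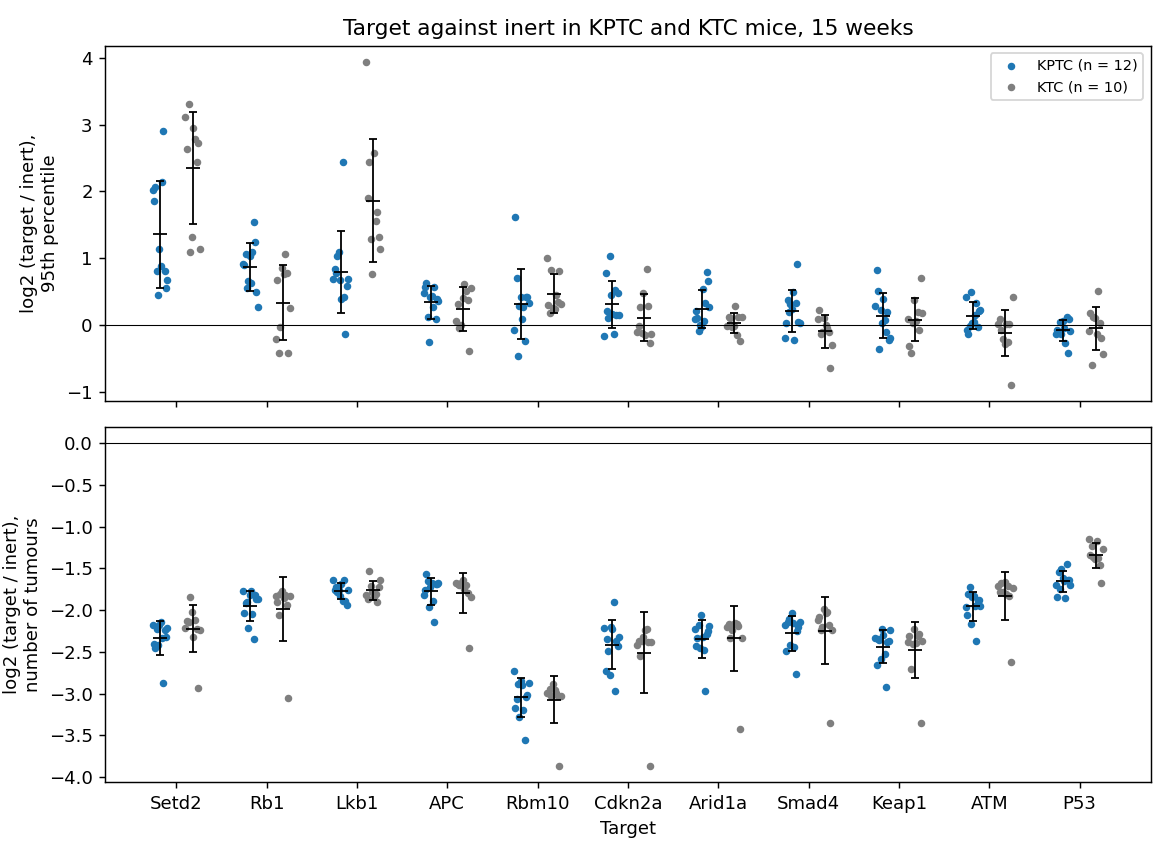
Points give per-mouse log2 ratios of target to inert for 12 KPTC (blue) and 10 KTC (grey) mice, at the 95th percentile of size (top) and for the number of tumours (bottom), with black marks for mean and SD. Lkb1 averages 0.79 in KPTC and 1.86 in KTC in the top panel, and P53 averages -1.66 and -1.34 in the bottom panel, where KTC replicate 9 sits apart for most targets.

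The KPTC mice fell into 7 with IDs that begin with IW and 5 without a prefix, and the labels do not say what the prefix marks. The 95th percentile effects were alike in direction in both sets for the 3 leading targets. Setd2 averaged 1.30 in the 7 and 1.44 in the 5 mice, Rb1 0.90 and 0.82, and Lkb1 0.72 and 0.88. The difference between the sets passed for 0 of 11 targets by an exact permutation test (0 under 0.05 before adjustment); the largest was for Arid1a, at 0.37 against 0.06 (adjusted permutation p = 0.583). Across the 12 mice, the effects of the 11 targets were also set against tumour number, cells per step and the inert 95th percentile, and 0 of these 33 relations passed (0 under 0.05 before adjustment, smallest adjusted permutation p = 0.895).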

How the data were processed

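Each library was 1 mouse, and barcodes were amplified by PCR from whole-lung DNA, per the labels' protocols. The deposited table lists absolute tumour size in cells, an amount named by the authors for the file and classed here as another unit, for each mouse, target and barcode. No source used here gives the steps from reads to barcodes and cells. The depth of a mouse was read from the spacing of its sizes, and every size under 200 steps lay on the ladder (offset 0.01 to 0.25 of a step).

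Tumours of at least 500 cells were used, with at least 20 tumours per target and mouse (100 for the 99th percentile). Per mouse, log2 ratios of target to inert were formed. Means over mice were tested by two-sided exact sign-flip permutation (smallest p with 12 mice 0.000488), and KPTC against KTC by permuting mouse labels (100000 resamples), with Benjamini-Hochberg adjustment over the 11 targets or 55 pairs and a threshold of 0.05. Replicates were numbered in accession order. The target names matched RefSeq symbols or synonyms (GRCm38.p6) for 11 of 11. All 11 targets are named, and values by mouse are given for those that passed at the 95th percentile. The members and lists were chosen with earlier results of these data known. The tests were run on simulated data as a check of the code only. The values simulated for KPTC against KTC spread less than the Lkb1 and Setd2 ratios. Computing used Python 3.11.15, NumPy 2.4.6, pandas 2.3.3, SciPy 1.17.1 and Matplotlib 3.10.9. Alternatives tried were lower size limits of 1000 and 5000 cells, leaving out the largest tumour, tumours matched at 10 times their size in another mouse, single mice and each ID prefix, more tumours per target, a log-normal mean, and adjustment over all measures. Chosen after seeing the data were at least 10 steps, barcodes with the fixed bases, and barcodes not 1 base from a larger one. Other genotypes and times were not analysed here.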

Additional observations from a re-analysis of the deposited data

Results flagged for a closer look

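The Lkb1 effect differed between KPTC and KTC mice at the 95th percentile (-1.07 on the log2 scale, KPTC minus KTC) and in summed cells relative to inert (-1.23), and the permutation test of the difference passed in 28 and 32 of 32 alternatives. The Setd2 (-0.99), Rb1 (0.53) and Smad4 (0.30) effects at the 95th percentile also differed between the genotypes, and these passed in 9, 6 and 5 of 32 alternatives. The number of P53 tumours per inert tumour was lower in KPTC (-0.31), in 31 of 32 alternatives.

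KTC replicate 9 lay far from the other 9 KTC mice in the number of tumours per inert tumour. Its log2 ratio was -2.94 for Setd2, -3.42 for Arid1a, -3.87 for Rbm10, -2.63 for ATM, -3.87 for Cdkn2a, -3.05 for Rb1, -2.45 for APC, -3.36 for Smad4 and -3.36 for Keap1, each below all other KTC mice. The 9 values share 1 inert count, and of 33 sets of KTC values examined 9 stood out in this way, where chance gives about 1 in 20. This mouse had 1271 tumours, 482 of them inert, and the smallest cells per step of the KTC mice (5.33). Without this mouse, the genotype differences at the 95th percentile passed for Lkb1 (adjusted permutation p = 0.0234) but not for Setd2 (0.112), Rb1 (0.112) or Smad4 (0.118), and Setd2 (-0.19) and ATM (-0.21) passed in tumour number beside P53. The KPTC mice were not examined in this way. Among them, the same 9 targets each had their lowest share of a mouse's tumours in KPTC replicate 9. Inert (32.7%), Lkb1 (10.5%) and P53 vectors had their highest shares there. KPTC replicate 9 also had the largest Setd2 and Rb1 ratios at the 95th percentile. Whether these are linked was not tested.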

How the results depend on the processing

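Setd2, Rb1 and Lkb1 kept their direction at the 95th percentile in every alternative tried, and the limits lie in the counts. No paired analysis was possible because replicate numbers name the mice of each genotype in accession order and link none across genotypes; targets and inert tumours were compared within each mouse. The 7 mice with the IW prefix cannot give an exact permutation p under 0.0156, so that few calls can hold after adjustment over 11 targets, and the 5 others cannot give one under 0.0625, so that none can pass.

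Targets passing the test (main counts in the report) were as follows. With at least 1000 cells, 3 passed at the median, 4 at the 90th and 3 at the 95th percentile, 4 at 10000 cells and 5 for the 99th percentile over the median, of which 2, P53 (-0.84) and Smad4, were below inert. With at least 5000 cells (11.9% of tumours), 3 passed at the median, 75th and 90th percentiles and at 10000 cells, 4 against P53, 1 in burden per tumour, and 0 at the 99th percentile, over the median, in its pairs (at the 99th at most 5 mice had enough tumours, so none could pass) and in tumour number between genotypes. With at least 10 steps (42.5%), 1 passed at the median, 3 at the 75th and 99th, and 4 at the 90th percentile and at 10000 cells. Without the largest tumours, 3 passed at the 99th percentile, 5 at 100000 cells and in burden per tumour, and 2 in burden between genotypes. Without matched tumours, 4 passed at the median and 1 in burden per tumour. With the fixed bases only, 2 passed at the median and 3 at the 99th percentile. Adjusted over all measures, burden per tumour gave 2. The IW mice gave 4 at 10000 cells, 2 in tumour number between genotypes and 0 at the median, the 90th, 95th and 99th percentiles, at 100000 cells, over the median, in all pairs and at the 95th percentile between genotypes. The 5 others gave 0 in every comparison within KPTC. Between genotypes at the 95th percentile, 1 passed at 1000 cells, at 5000 cells, without matched tumours, with more tumours needed, without barcodes 1 base from a larger one, and adjusted over all measures.

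Leaving out 1 mouse at a time gave 4 to 8 targets at the 99th percentile, 0 to 2 in burden per tumour, 0 to 4 at the 95th percentile between genotypes, 1 to 2 in burden between genotypes and 1 to 3 in tumour number.

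Signs turned at 1000 cells for APC (-0.056) and Smad4 (-0.53) at the 99th percentile and for Smad4 over the median (-0.60). At 5000 cells they turned for P53 at the median (-0.041), Smad4 at the 90th (-0.23), APC (-0.22) and Keap1 (-0.83) at the 95th, Arid1a (-0.59) and APC (-0.12) at the 99th, Smad4 against P53 (-0.016), Setd2 minus Lkb1 at the 90th (-0.21) and Smad4 between genotypes (-0.75). With at least 10 steps P53 turned at the median (-0.058). The cause was not tested.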

Other observations

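Across the 12 KPTC mice 9 tumours were listed at 10000000 cells or more, and their vectors included targets that did not pass at the 99th percentile. Among the 9 were an inert tumour of 1.35e+07 cells in replicate 7 and an ATM tumour of 1.10e+07 cells in replicate 11. Replicate 12 held 5 of the 9, with Smad4 (8.58e+07 cells), Rbm10 (7.06e+07 cells), P53 (6.23e+07 cells), ATM (1.14e+07 cells) and Lkb1 (1.09e+07 cells). Replicate 8 held the Cdkn2a tumour of 1.02e+08 cells, which was 59.8% of the tumour cells of that mouse, and a P53 tumour of 1.91e+07 cells. The next Cdkn2a tumour of replicate 8 had 317131 cells. Near these largest tumours the table also listed barcodes that differ by 1 base, 38 for the Cdkn2a tumour and 34 for the P53 tumour of replicate 8.

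The same vector and barcode often appeared in more than 1 mouse. Of 121382 pairs of target and barcode in the KPTC mice, 12484 (10.3%) were listed in at least 2 of the 12. The Cdkn2a barcode of replicate 8 was listed in 17 other mice of the whole series, at most at 323146 cells. Between 4.31% and 9.76% of the tumours of a KPTC mouse shared target and barcode with an entry at least 10 times larger. That entry could be in any other mouse of the series, of any genotype or time.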
